A study of Homo sapiens with 54 samples.

Results

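Tumours responding to enzalutamide were compared with tumours responding to castration alone, in xenografts of LNCaP, a line of human prostate cancer cells that depends on androgen, grown under the skin of immunodeficient NOD-SCID mice. The members were chosen by their group labels, as the 12 ENZS and 8 POST-CX tumours, 20 of the 54 tumours of the series, each from its own mouse. All 20 mice had been surgically castrated. POST-CX tumours were taken 1 week after castration, when prostate-specific antigen (PSA) in serum had reached its first low point, and received no drug. ENZS mice were castrated, serum PSA was left until it started to climb, enzalutamide was given by mouth at 10 mg/kg on 5 days per week, and the tumours were taken on the drug at the second PSA low point. Drug, time since castration and the regrowth between the low points therefore differ together between these groups and cannot be told apart. The other groups served as reference points and for the estimate of spread: PRE-CX (n = 9) after mock surgery, CRPC (n = 10) relapsed after castration, and ENZR (n = 15) relapsed on enzalutamide. LNCaP is 1 cell line, so the tumours are replicates of hosts and grafts and not of patients.

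Castration removes testicular androgen, the ligand of the androgen receptor, whereas enzalutamide binds the receptor itself, competes with remaining ligand and hinders its entry into the nucleus and its binding to DNA. In luminal prostate cells the receptor drives secretory genes such as KLK3, which encodes PSA, and holds down another set of genes that rise when androgen is withdrawn. PSA in serum is the clinical measure of response to both treatments, although it reports receptor output and not cell division.

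Values are TPM of human genes, a relative measure that corrects for gene length and library size. Reads were assigned to human and mouse genes together and the mouse genes were then left out. The human TPM of a tumour therefore summed to less than 1000000, and each tumour was rescaled to that sum. Spike-in control RNAs are named in the labels, and whether they hold part of the missing share is not known. The human total is thus not an exact measure of host content. Human totals were 87.5% ± 6.86 of 1000000 in ENZS (SD, n = 12). In POST-CX they were 78.7% ± 23.4 (SD, n = 8), which was 8.87 percentage points lower (two-sided exact permutation test over tumours, p = 0.283). POST-CX mouse 91 stood apart with a total of 27.9%, and POST-CX mouse 48 had 59.7%. Without mouse 91 the difference was 1.61 points (exact permutation test, p = 0.707). Mouse 91 also had the lowest mitosis gene level of its group, given below, so results are given with and without it. All 10 LNCaP and luminal defining genes passed the expression filter. Of these, 2 were higher in ENZS, CDH1 and FOLH1, and 8 did not pass the test. That share of 20% was near the 20.2% of all tested genes that were higher.

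Between the response to enzalutamide and the response to castration, 3546 of 17593 tested genes were higher in ENZS (20.2%) and 1325 were lower (7.53%) at an adjusted p under 0.05 in limma. A difference of at least 2-fold was met as well by 388 genes higher in ENZS (2.21%) and 251 lower (1.43%). Differences are log2 differences of rescaled TPM + 1, so changes of genes near 1 TPM are understated. The median difference of all tested genes was 0.13. With each tumour centred on its median gene, 2568 genes were higher and 2156 lower, which moved the share of higher calls from 72.8% to 54.4%, and with TPM as deposited the split was 3046 to 323 (90.4% higher). Counts of higher genes therefore stand against a background of 20.2% of all genes. Centred counts, given for most gene lists, stand against 2568 higher and 2156 lower of all 17593 genes. Without the 2 tumours under 300000 TPM in total, POST-CX mouse 91 and ENZR mouse 87, 3735 genes were higher and 1662 lower.

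**Figure D1:**
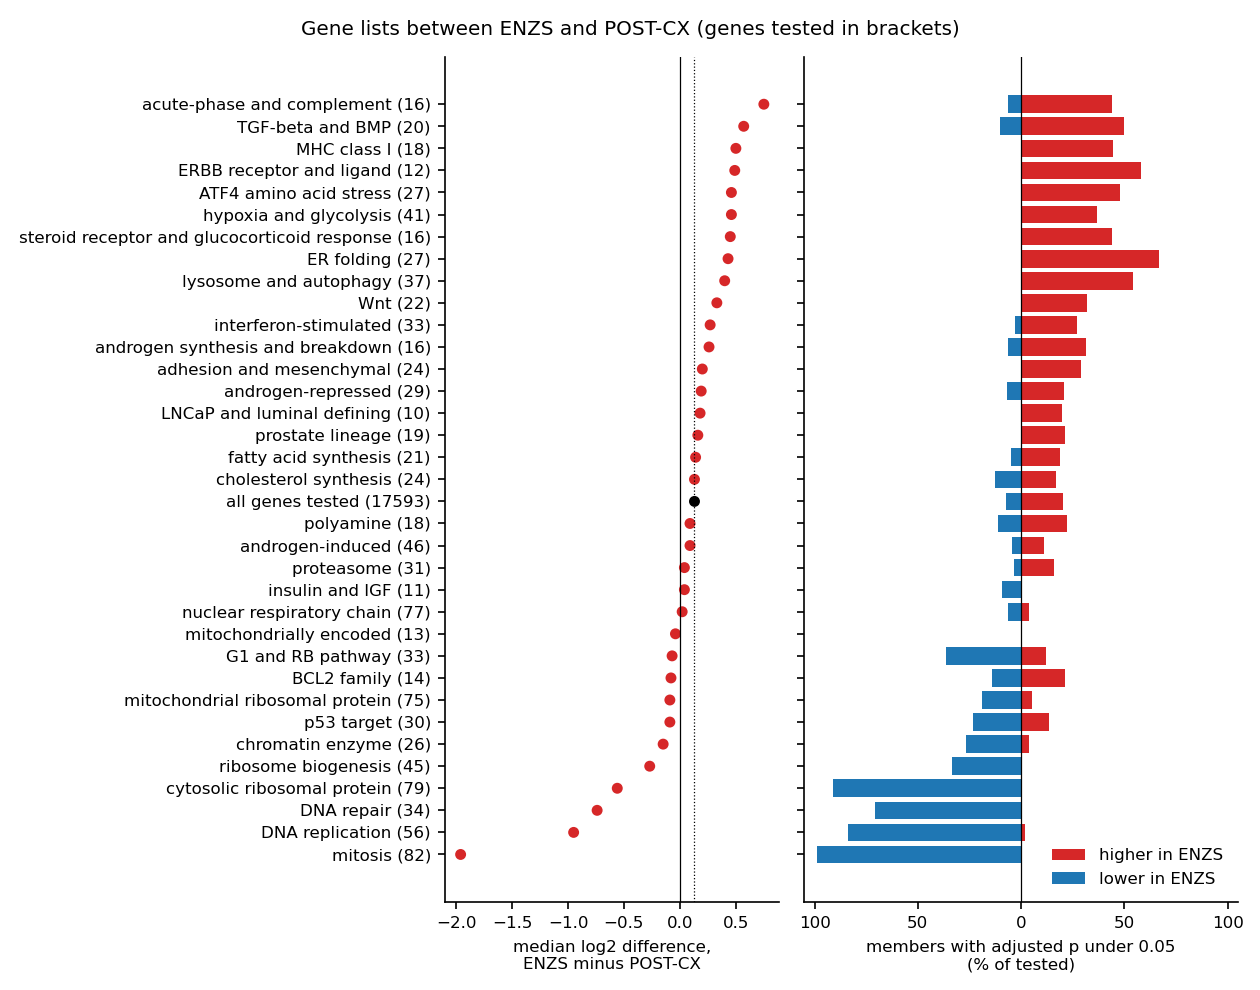
Gene lists with at least 10 tested genes between ENZS (n = 12) and POST-CX (n = 8). Left, the median log2 difference of rescaled TPM + 1 (dotted line, all tested genes at 0.13); right, the percentage of tested members with an adjusted p under 0.05, higher (red) or lower (blue) in ENZS, with mitosis, ribosomal protein, DNA replication and DNA repair genes at the lower end and ER folding, lysosome and ERBB genes mostly to the right.

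Genes of mitosis were lower in ENZS than in POST-CX. Of 82 tested genes for spindle, kinetochore, cyclin B and cytokinesis functions, 81 fell, 0 rose, and BUB3, a spindle checkpoint gene, did not pass (log2 difference -0.11, limma adjusted p = 0.379). Their median difference was -1.96, against 0.13 for all genes, and 81 also fell after centring and without the tumours under 300000 TPM (median -2.17). For 76 of the 82, every ENZS tumour lay below every POST-CX tumour except mouse 91, against 518 of all tested genes (2.94%). The mean log2 level of the list ranged in POST-CX from 4.13 to 4.82 in the other 7 tumours and was 2.89 in mouse 91, and in ENZS it ranged from 1.46 to 3.57 with a median of 2.24. Mouse 91 thus lay among the ENZS tumours. In bulk tumours, fewer dividing cells and less RNA of these genes per dividing cell cannot be told apart.

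MKI67, whose product Ki-67 is the standard tissue marker of dividing cells (chr10:128096659-128126423, GRCh38.p14), had 5.77 rescaled TPM in the lowest, 11.01 in the median and 15.1 in the highest POST-CX tumour. In ENZS these values were 0.359, 1.71 and 5.83. In 11 of 12 ENZS tumours MKI67 was below every POST-CX tumour, and the log2 difference was -2.05 (SE 0.31, limma adjusted p = 3.61e-06). TOP2A, the topoisomerase that untangles sister chromatids, ranged from 12.1 to 41.2 TPM with a median of 31.2 in POST-CX and from 0.348 to 16.1 with a median of 3.15 in ENZS. It was 6.98-fold lower on the log2 scale used (log2 difference -2.80, SE 0.43, limma adjusted p = 5.08e-06). All 12 ENZS tumours lay below the 7 other POST-CX tumours, and 10 lay below mouse 91 too.

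The 10 largest falls among genes with at least 5 TPM in the higher group were mostly of the same kind. UBE2C, which feeds the anaphase-promoting complex with ubiquitin, had a log2 difference of -2.98, from a median of 49.5 to 5.01 TPM. RRM2, the ribonucleotide reductase subunit that supplies deoxynucleotides, fell by 2.88, and BIRC5 (survivin) and NUSAP1, a spindle protein, each by 2.83. PBK, a mitotic kinase, fell by 2.76, NCAPG of the condensin complex by 2.69, and FOXM1, a transcription factor of late cell cycle genes, by 2.65. The other two were ADRA2A, an adrenergic receptor (-2.75), and BCAP31P1 (-3.35). BCAP31P1 had 1.54 to 38.5 TPM in POST-CX and 0 to 1.09 in ENZS without overlap, but it is a pseudogene of BCAP31, so how reads were shared between the copies leaves its level uncertain.

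**Figure D2:**
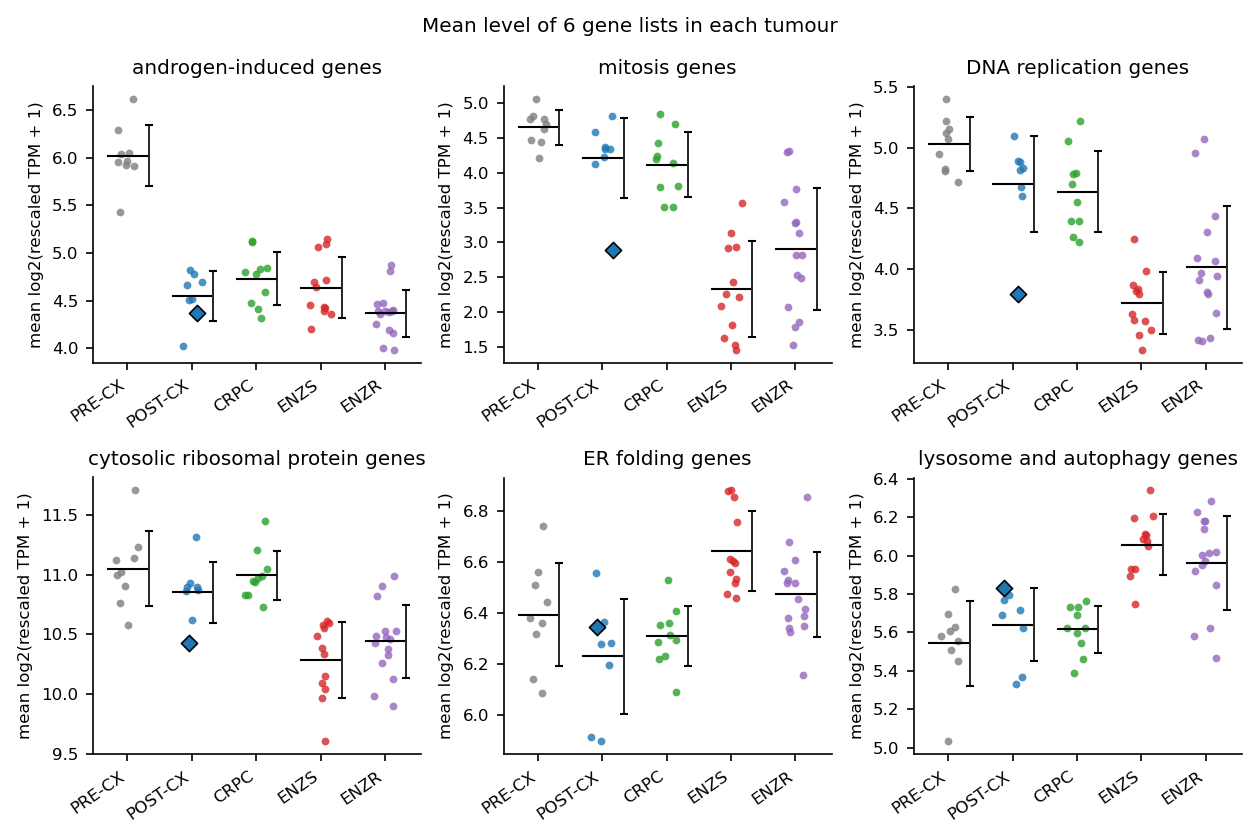
Mean log2(rescaled TPM + 1) of 6 gene lists in each of the 54 tumours by group, with the group mean (line) and SD (bar) and POST-CX mouse 91 as a diamond. ENZS tumours sit between 1.46 and 3.57 for mitosis genes, with mouse 91 at 2.89 and the other 7 POST-CX tumours from 4.13 up, while for androgen-induced genes the ENZS and POST-CX tumours overlap.

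The fall reached the genes of S phase and of homologous recombination. Of 56 DNA replication genes 47 fell and 1 rose, RPA2, a subunit of the single-strand binding protein (0.32), with a list median of -0.95. MCM2, part of the replicative helicase, went from a median of 26.9 TPM (13.1 to 40.5) to 12.0 (8.37 to 15.3), a change in log2 TPM of -1.06 (SE 0.20, limma adjusted p = 6.49e-05). TYMS, the thymidylate synthase, fell by 2.59 and CDC45, another helicase subunit, by 2.21. Of 34 DNA repair genes 24 fell and 0 rose, also at an unadjusted p (median -0.74), among them BRCA1 (-1.90) and RAD54L (-1.87), which act in homologous recombination. After centring, 50 replication and 27 repair genes fell. With TPM as deposited, 25 and 15 did.

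Regulators ahead of S phase moved unevenly. In the G1 and RB pathway list 12 of 33 tested genes fell and 4 rose (12 and 2 after centring). The share that fell was 36.4%, against 7.53% of all genes. The share that rose was 12.1%, below the 20.2% of all genes. The activator E2F1 fell by 1.65 and E2F8, itself a cell-cycle target, by 1.73. CDK2 (-0.96), CCNE1 (-0.86), CDC25A (-1.42) and SKP2 (-0.92), which promote entry into S phase, fell as well. MYC fell from a median of 123 TPM (49.2 to 142) to 37.3 (7.38 to 65.5), a change in log2 TPM of -1.80 (SE 0.33, limma adjusted p = 4.62e-05), and all 12 ENZS tumours lay below the 7 POST-CX tumours other than mouse 91. The inhibitors CDKN2B (1.28), CDKN2D (0.38) and CDKN1B (0.38) and the pocket protein RBL2 (0.37) rose, although only 1 of these 4 calls was left when POST-CX mouse 18 was left out. CCND1, the cyclin that opens G1, had medians of 105 and 98.1 TPM in POST-CX and ENZS, with overlapping tumours and a log2 difference of -0.07 (95% interval -0.42 to 0.27, limma adjusted p = 0.791).

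Among chromatin enzymes 7 of 26 fell and 1 rose (13 and 1 after centring). UHRF1 (-1.98) and HELLS (-1.46), which maintain DNA methylation at replication, fell the most, and HELLS was lower in all 12 ENZS tumours than in any POST-CX tumour. EZH2, the methyltransferase of the Polycomb repressive complex, fell by 0.61, whereas its paralog EZH1 rose by 0.49. Among 30 p53 target genes 7 fell and 4 rose (9 and 3 after centring), including GADD45A (1.07) and, in the other direction, DDB2 (-0.95) and BAX (-0.78). With TPM as deposited, 2 chromatin enzyme and 1 p53 target genes fell.

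Promoters of several fallen genes are printed because late cell cycle genes are known to carry, close to their start, a cell cycle genes homology region (CHR, here TTTGAA or TTTAAA) and CCAAT boxes, bound by MuvB complexes and NF-Y. Sequences are RefSeq promoters of GRCh38.p14, the bases just before the annotated start, 5′ to 3′ on the strand of the gene, with the CHR letters and CCAAT, or its reverse complement, in capitals. In MKI67 the later CHR shares a base with a reversed CCAAT, so the pair forms 1 run of capitals. The positions are chr15:59105026-59105145 (+) for CCNB2, chr16:23678769-23678888 (+) for PLK1, chr10:128126424-128126543 (-) for MKI67, chr15:41332761-41332880 (+) for NUSAP1, chr4:17810859-17810978 (+) for NCAPG and chr2:10122609-10122738 (+) for RRM2, the replication gene. RRM2 has a further annotated start upstream, at 10122568, so its stretch precedes the later start.
CCNB2: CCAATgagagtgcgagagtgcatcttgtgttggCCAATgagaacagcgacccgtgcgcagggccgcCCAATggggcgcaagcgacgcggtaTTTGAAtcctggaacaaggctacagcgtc
PLK1: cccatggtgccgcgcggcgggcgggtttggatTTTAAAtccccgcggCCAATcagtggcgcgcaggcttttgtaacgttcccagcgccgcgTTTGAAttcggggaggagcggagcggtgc
MKI67: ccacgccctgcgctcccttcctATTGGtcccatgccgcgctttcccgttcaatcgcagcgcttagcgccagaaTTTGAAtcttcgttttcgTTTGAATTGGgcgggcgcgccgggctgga
NUSAP1: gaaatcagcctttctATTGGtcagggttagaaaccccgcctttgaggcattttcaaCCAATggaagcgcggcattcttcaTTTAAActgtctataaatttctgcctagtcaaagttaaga
NCAPG: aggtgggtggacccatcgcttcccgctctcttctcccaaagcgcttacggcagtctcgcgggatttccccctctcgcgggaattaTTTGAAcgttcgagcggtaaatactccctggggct
RRM2: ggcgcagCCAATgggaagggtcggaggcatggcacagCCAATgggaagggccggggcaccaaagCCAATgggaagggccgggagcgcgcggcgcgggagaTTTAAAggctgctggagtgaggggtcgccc

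Of 68 mitosis genes with a promoter in the RefSeq table, 41 had TTTGAA or TTTAAA on either strand within 250 bases before the start (60.3%), against 22.1% of all 27305 promoters of that length. Of 48 DNA replication genes 3 had it (6.25%). CCAAT on either strand was in 67.6% of the mitosis, 54.2% of the replication and 33% of all promoters. Such a match describes the letters in this window and is not a site.

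Genes of the cytosolic ribosome fell together by a smaller amount. Of 79 ribosomal protein genes 72 fell and 0 rose, with a median log2 difference of -0.56, and 72 also fell after centring. Their summed share of the human total was 12.6% to 23.8% with a median of 17.2% in POST-CX, and 7.11% to 14.3% with a median of 12.0% in ENZS. RPS2, a small-subunit protein, had medians of 2733 and 1371 TPM (log2 difference -0.86, SE 0.14, limma adjusted p = 1.06e-05), and 7 of 12 ENZS tumours lay below every POST-CX tumour. With TPM as deposited none of the 72 calls was kept (0 of 79 lower in limma, 4 at an unadjusted p under 0.05, list median -0.33), whereas on that scale without the tumours under 300000 TPM 64 fell. These genes have many near-copies among pseudogenes, which leaves single values uncertain. Of 45 ribosome biogenesis genes 15 fell and 0 rose, among them the nucleolar methyltransferase FBL (-0.75), with 30 falling after centring, 24 without POST-CX mouse 91 and 1 with TPM as deposited. Mitochondrially encoded genes showed 0 of 13 calls in limma, also at an unadjusted p under 0.05 (0 of 13), and 3 of 77 nuclear respiratory chain genes rose and 5 fell (0 and 11 after centring).

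In contrast to cell division, the output of the androgen receptor was not shown to differ between both responding states. Both groups were harvested at a low point of serum PSA, the product of KLK3. Their receptor output is therefore not independent of how the tumours were chosen. Of 46 tested androgen-induced genes 5 were higher and 2 lower in ENZS (10.9% and 4.35%, against 20.2% and 7.53% of all genes), with a median log2 difference of 0.09. The mean log2 level of the list was 4.03 to 4.82 in POST-CX and 4.21 to 5.15 in ENZS, while PRE-CX tumours had 5.43 to 6.62. The ranges of the responding groups overlapped, and both lay below PRE-CX. After centring 2 genes were higher and 3 lower.

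KLK3 (chr19:50854915-50860764) had 604 TPM in the lowest, 1529 in the median and 3203 in the highest POST-CX tumour. In ENZS it had 232, 2803 and 4693 TPM. Both the lowest and the highest values were in ENZS, and the log2 difference was 0.48 (95% interval -0.49 to 1.46, limma adjusted p = 0.494). The KLK3 promoter, chr19:50854715-50854914 (+), is shown with AGAACA, the hexamer that androgen response elements repeat, in capitals. Within 250 bases before the start, these letters stand on either strand in 12.4% of all promoters. They stand in 1 of 34 androgen-induced promoters (2.94%) and in 1 of 4 kallikrein promoters, so they do not mark these lists.
KLK3: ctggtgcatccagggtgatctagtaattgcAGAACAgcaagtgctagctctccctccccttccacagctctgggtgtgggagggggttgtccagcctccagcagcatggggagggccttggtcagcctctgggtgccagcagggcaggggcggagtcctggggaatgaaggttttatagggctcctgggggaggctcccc
TMPRSS2, a membrane protease gene under androgen control, had medians of 179 and 135 TPM in POST-CX and ENZS (difference -0.06, 95% interval -0.66 to 0.54, limma adjusted p = 0.905), and its sign turned to 0.18 with TPM as deposited.

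FKBP5, a receptor co-chaperone induced by androgens and by glucocorticoids, had medians of 34.5 and 19.0 TPM, with 8 of 12 ENZS tumours below the 7 POST-CX tumours other than mouse 91 (difference -0.49, 95% interval -1.11 to 0.14, limma adjusted p = 0.251). With array weights FKBP5 passed (-0.67, limma adjusted p = 0.00933). The androgen-induced genes that passed included NDRG1 (0.95), EAF2 (0.92), ALDH1A3 (0.67) and TPD52 (0.36), higher, and KCNN2, a potassium channel (-1.42), and ORM1 (-0.71), lower. The call of NDRG1, also a hypoxia gene, was lost after centring and without mouse 91, and ORM1 has a close paralog. Of the 5 kallikrein locus genes KLK4 (1.08, limma adjusted p = 0.00133) and the pseudogene KLKP1 (0.90) rose, also after centring, KLK4 from a median of 280 to 584 TPM, with 11 of 12 ENZS tumours above every POST-CX tumour and 1 below them all. That one tumour, mouse 49, also had the lowest KLK3 value, 232 TPM.

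**Figure D3:**
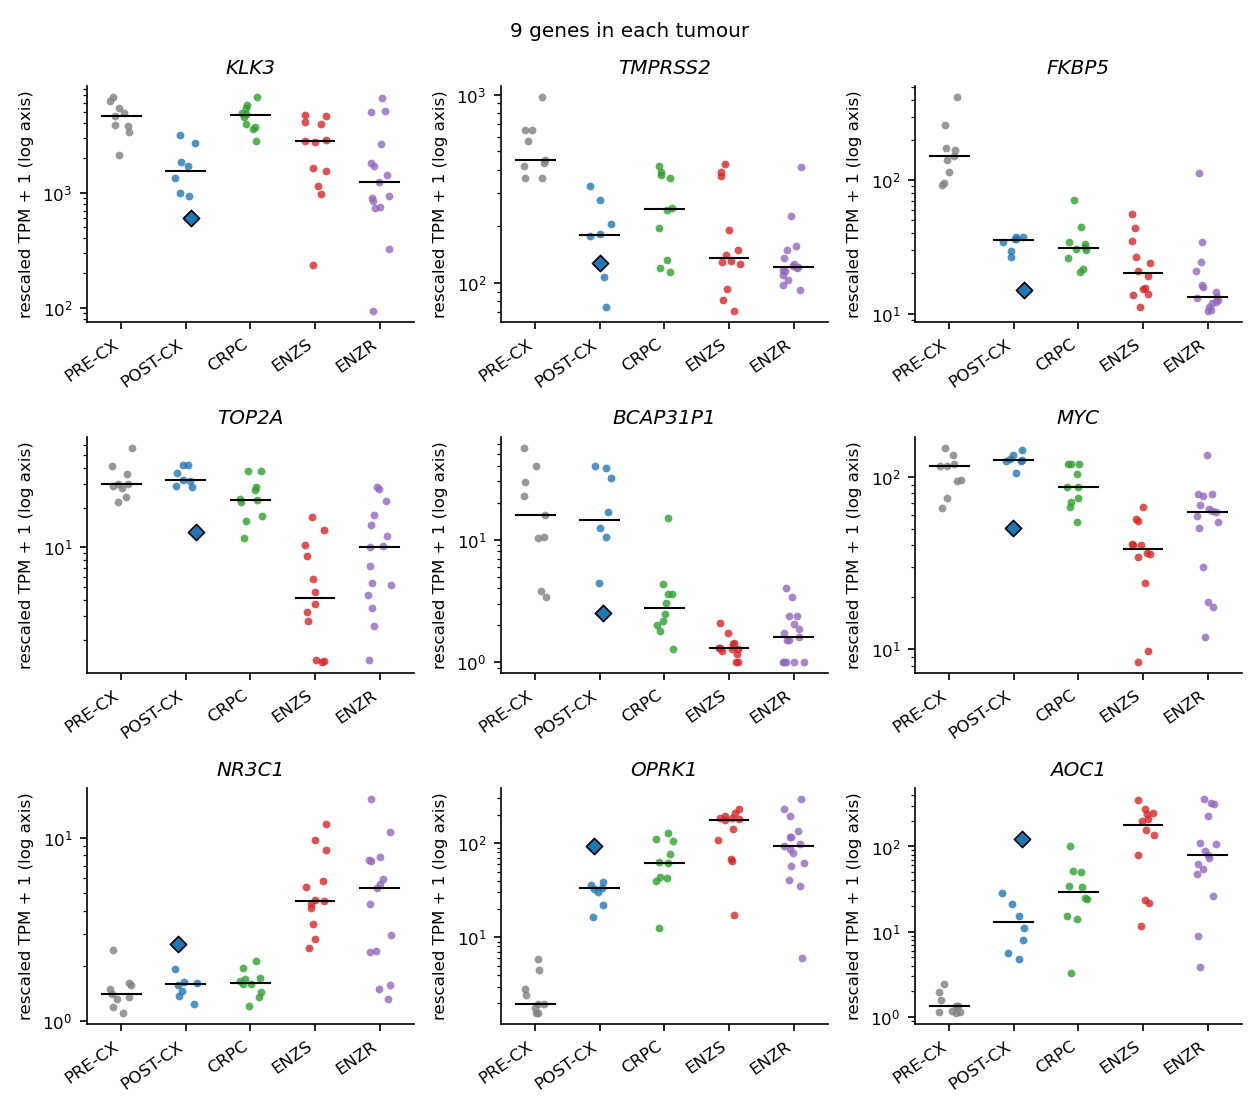
Rescaled TPM + 1 on a log axis of 9 genes in each tumour, by group, with the group median as a line and POST-CX mouse 91 as a diamond. KLK3, TMPRSS2 and FKBP5 overlap between POST-CX and ENZS, TOP2A, MYC and BCAP31P1 are lower in ENZS, and NR3C1, OPRK1 and AOC1 are higher.

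A few genes that castration had raised, OPRK1, AOC1 and LRRN1, were higher still on enzalutamide. OPRK1, the kappa opioid receptor, which the androgen receptor represses, had a mean of 1.72 TPM in PRE-CX, 15.3 to 92.6 with a median of 32.1 in POST-CX, and 16.2 to 230.0 with a median of 178 in ENZS. It was higher than every POST-CX tumour in 9 of 12 ENZS tumours, with a change in log2 TPM of 1.88 (SE 0.46, limma adjusted p = 0.00188). AOC1, a diamine oxidase gene, went from a median of 12.1 to 175 TPM (2.84), and mouse 91, at 122 TPM, was the highest of POST-CX. LRRN1, a leucine-rich repeat membrane protein gene, rose by 1.76, with 37.7 to 109 TPM in POST-CX and 101 to 321 TPM in ENZS. Of 29 tested androgen-repressed genes 6 rose, these 3 with SERPINI1 (1.61), TSPAN7 (1.40) and CCN3 (0.93), and 2 fell, HES6 (-0.84) and CNTNAP2 (-0.98). These shares, 20.7% and 6.9%, were close to the 20.2% and 7.53% of all genes, and after centring 6 were higher and 4 lower. DDC, an enzyme of dopamine and serotonin synthesis, had medians of 315 and 485 TPM (0.68, interval -0.40 to 1.77, limma adjusted p = 0.363).

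NR3C1, which encodes the glucocorticoid receptor, a relative of the androgen receptor that can bind many of the same DNA sites (chr5:143277931-143435512), was low in POST-CX, with 0.251, 0.598 and 1.65 TPM in the lowest, median and highest tumour. In ENZS it had 1.497, 3.55 and 10.8 TPM. All 12 ENZS tumours exceeded the 7 POST-CX tumours other than mouse 91, which had the 1.65, and 11 exceeded that one too (log2 difference 1.62, SE 0.31, limma adjusted p = 0.000113). The level in ENZS was still a few TPM. Of 16 tested steroid receptor and glucocorticoid response genes 7 rose and 0 fell (6 and 0 after centring). They included NR3C2, the mineralocorticoid receptor (1.01), PER1 (1.15), DUSP1 (0.80), ERRFI1 (0.51) and the metallothioneins MT1X (1.29) and MT2A (1.19), which glucocorticoids and metals both induce and whose copies are closely alike. FKBP5, an inducible gene of both receptors, did not pass. Of 16 androgen synthesis and breakdown genes 5 rose and 1 fell (3 and 1 after centring), with AKR1C3, which makes testosterone from androstenedione and has close paralogs, at a median of 1.0 TPM in POST-CX and 3.18 in ENZS (1.38, limma adjusted p = 0.000195). STS, which frees steroids from their sulphates, rose by 0.68 and was higher in 11 of 12 ENZS tumours than in any POST-CX tumour.

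Most folding genes of the endoplasmic reticulum (ER) were higher in ENZS. Of 27 ER folding genes 18 were higher in ENZS (66.7%) and 0 lower, with a median of 0.43, and 16 were higher and 1 lower after centring. HSPA5, the main ER chaperone BiP, had 156 to 300 TPM with a median of 224 in POST-CX and 297 to 587 with a median of 350 in ENZS, with 11 of 12 above every POST-CX tumour (0.86, SE 0.14, limma adjusted p = 1.38e-05). DNAJB9 (1.40) and HERPUD1 (0.88), of the same response, rose as did the sensors ATF6 (0.47) and ERN1 (0.63) and the transcription factor XBP1 (0.83). The lowest ER folding levels, 5.90 and 5.91, were those of POST-CX mice 48 and 18, and without mouse 18 the count of higher genes was 15. Of 27 genes of amino acid stress controlled by ATF4, 13 rose and 0 fell (10 and 0 after centring). DDIT3, or CHOP, went from a median of 44.3 to 115.8 TPM (1.57, SE 0.33, limma adjusted p = 0.000369), SLC3A2, an amino acid transporter subunit, rose by 1.14, and PSAT1 of serine synthesis by 0.86.

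Lysosome genes formed another rising group, with 20 of 37 lysosome and autophagy genes higher, 0 lower and a median of 0.40 (17 and 0 after centring). PSAP, the precursor of the saposins that activate lysosomal lipid breakdown (chr10:71816298-71851251), had 385 to 695 TPM in POST-CX and 798 to 1436 in ENZS, without overlap (0.90, SE 0.16, limma adjusted p = 2.74e-05). CTSB, a cathepsin protease gene, rose by 1.02, LAMP2 by 0.70 and GABARAPL1, of autophagosomes, by 0.86. Of 18 genes of MHC class I antigen presentation 8 rose and 0 fell (7 and 0 after centring), including HLA-B (1.18), HLA-C (0.84), HLA-E (0.98) and B2M (0.73), whose HLA members are closely alike in sequence. HLA-B in mouse 91, at 478 TPM, exceeded every ENZS tumour (73.9 to 435), whereas 11 of 12 ENZS tumours exceeded the other 7 POST-CX tumours.

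Several receptor and ligand genes were higher in ENZS. Of 12 tested ERBB receptor and ligand genes 7 rose and 0 fell (6 and 0 after centring). HBEGF, an EGFR ligand, had a median of 3.27 TPM in POST-CX and 8.82 in ENZS (1.15, SE 0.24, limma adjusted p = 0.00031), NRG3 3.59 and 13.3 TPM (1.16), and EGFR itself 21.4 and 34.3 TPM (0.64, limma adjusted p = 0.00865). For ERBB2 the tumours overlapped, with 153 and 175 TPM (0.35, 95% interval -0.05 to 0.75, limma adjusted p = 0.196). Of 20 TGF-beta and BMP genes 10 rose, such as TGFB3 (1.06), TGFBR2 (0.71), INHBB (1.06) and ID2 (1.02), and 2 fell, SMAD6 (-0.33) and BMP6 (-0.63), with 8 and 2 after centring. Of 22 Wnt genes 7 rose and 0 fell (6 and 0 after centring), led by the receptor ROR2, at 0.947 to 4.91 TPM in POST-CX and 3.75 to 13.3 in ENZS (1.51, SE 0.26, limma adjusted p = 2.26e-05).

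Metabolic lists were mixed, and few of their genes separated the groups. Leaving out mouse 91, ENZS lay wholly above POST-CX for 1 of 24 cholesterol and 1 of 14 BCL2 family genes. It lay wholly below for 1 of 21 fatty acid genes, and 0 of 41 hypoxia and glycolysis genes separated. Of all tested genes 3.19% lay wholly above and 2.94% wholly below. With 1 or 0 such genes per list, the frequencies cannot be compared with these shares. In the cholesterol list, 4 of 24 genes rose and 3 fell (2 and 3 after centring). These shares were 16.7% and 12.5%, against 20.2% and 7.53% of all genes. SC5D, a late step of the pathway, had 72.8 to 112 TPM in POST-CX and 140 to 221 in ENZS without overlap (0.96, SE 0.15, limma adjusted p = 4.68e-06), while HMGCS1, an early step, had medians of 69.0 and 75.1 TPM (0.17, interval -0.14 to 0.49, limma adjusted p = 0.433). FADS1, a fatty acid desaturase, had 29.7 to 47.0 TPM in POST-CX and 15.1 to 26.9 in ENZS (-0.87), again without overlap, although its call was lost with TPM as deposited. Of 41 hypoxia and glycolysis genes 15 rose and 0 fell, including SLC2A1, a glucose transporter (1.01), EGLN1, an oxygen sensor (1.03), ENO2 (1.29) and VEGFA (0.77), with 9 higher and 1 lower after centring, and 9 higher without ENZS mouse 45. Among BCL2 family genes 3 of 14 rose and 2 fell (21.4% and 14.3%, and 2 and 2 after centring), so the share of higher genes was near that of all genes. BCL2L2, which encodes the survival protein BCL-w, had 26.7 to 39.3 TPM in POST-CX and 40.3 to 80.5 in ENZS without overlap (0.68, limma adjusted p = 0.000321).

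The largest rises among genes reaching 5 TPM belonged to no single list. BHLHE41, a circadian repressor, had 0.159 to 22.7 TPM with a median of 2.33 in POST-CX and 5.404 to 120 with a median of 41.1 in ENZS (3.12, SE 0.61, limma adjusted p = 0.000129). AMOTL1, which binds the Hippo factor YAP, rose by 3.09, SYNE1, a nuclear envelope protein, by 2.68, APCDD1, a Wnt inhibitor, by 2.55, and OR51E2, an olfactory receptor of prostate epithelium, by 2.43. The others were AP001160.5 (2.97), AOC1 (2.84), ZNF735 (2.67), KCNC2, a potassium channel (2.47), and GLIPR1 (2.40). For BHLHE41, AMOTL1, SYNE1 and OR51E2 all 12 ENZS tumours lay above the 7 POST-CX tumours other than mouse 91, which held the highest AMOTL1, SYNE1 and OR51E2 values of its group (8.89, 72.6 and 68.5 TPM). Every ENZS tumour lay above those 7 for 561 of all tested genes (3.19%).

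Some stromal matrix genes and the macrophage gene CD68 were higher in ENZS too. Of 26 genes marking stroma and blood 14 stayed under 1 TPM in all 20 tumours and 9 passed the filter, of which 5 were higher in ENZS and 0 lower. DCN and LUM, matrix genes of fibroblasts, had means of 0.856 and 2.997 TPM in POST-CX and 9.84 and 21.7 in ENZS, and CD68 0.760 and 4.25. Other members were too low to be tested, and their means went in both directions. The stromal genes FBLN1 and PDGFRB had lower means in ENZS, with 0.759 and 0.477 TPM in POST-CX and 0.209 and 0.381 in ENZS. CSF1R, another macrophage gene, had a higher mean in ENZS, with 0.0612 TPM in POST-CX and 0.153 in ENZS. The summed level of all 26 was 19.5 to 51.2 TPM in POST-CX and 42.9 to 325 in ENZS, highest in ENZS mouse 80. Most markers of endothelium, leukocytes and red cells were near 0 in ENZS, with highest values of 0.0652 (PECAM1), 0.268 (PTPRC) and 0.423 TPM (HBB), and the fibroblast gene COL1A2 reached 0.269 TPM. Exceptions beside CD68 were VWF, an endothelial gene, with means of 3.15 TPM in POST-CX and 2.12 in ENZS (limma adjusted p = 0.114), and LYZ, a myeloid gene that was not tested, which reached 2.13 TPM in POST-CX and 0.607 in ENZS. The matrix genes FN1 (1.62) and VIM (1.92), higher in ENZS as well, are also made by stroma. The part of host reads in the higher genes was not tested.

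Each response was also measured from the state named as its predecessor, as POST-CX minus PRE-CX and ENZS minus CRPC, and the difference between the steps was tested in the same fit, with no tumour shared between the steps. CRPC tumours were taken at relapse, whereas enzalutamide began when PSA had only started to climb, so CRPC is not the exact starting state of ENZS. Of all genes, 606 had a higher (3.44%) and 360 a lower (2.05%) step on enzalutamide, and the latter count went from 218 without POST-CX mouse 44 to 499 without mouse 91. Mitosis genes had a median step of -0.45 after castration and -1.86 on enzalutamide, and in 45 of 82 the steps differed, all toward a larger fall on enzalutamide. MKI67 fell by 1.75 in the second step (limma adjusted p = 1.49e-05) and had -0.28 in the first (limma adjusted p = 0.552), a difference of -1.48 (limma adjusted p = 0.0334).

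Androgen-induced genes showed the opposite order, with a median of -1.32 after castration and -0.03 on enzalutamide. The steps differed in 27 of 46, all toward a smaller fall on enzalutamide. FKBP5 fell by 2.40 after castration and had -0.56 on enzalutamide (limma adjusted p = 0.119), a difference of 1.84 (limma adjusted p = 0.00808). KLK3 fell in both steps, by 1.58 and 1.14 (difference 0.43, 95% interval -0.95 to 1.82, limma adjusted p = 0.792). NR3C1 rose by 1.64 on enzalutamide and had 0.16 after castration (difference 1.48, limma adjusted p = 0.0367). The starting levels differed too: the androgen-induced mean was 4.32 to 5.13 in CRPC, below every PRE-CX tumour.

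**Figure D4:**
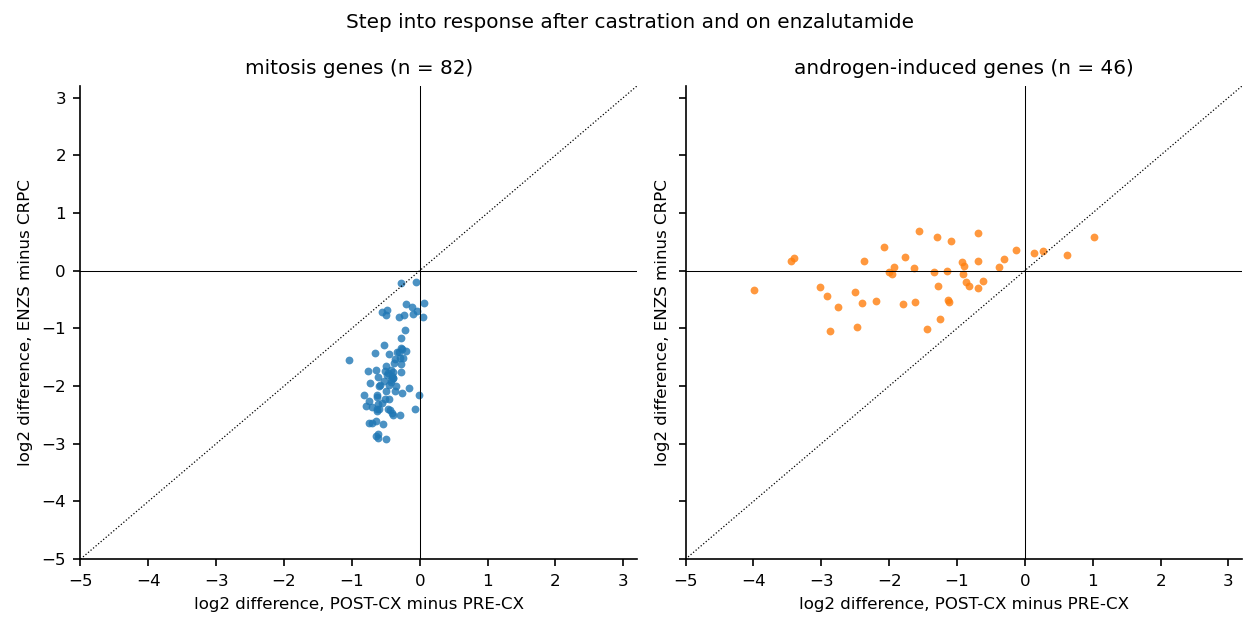
Each point is 1 gene of the mitosis list (left, n = 82) or the androgen-induced list (right, n = 46), with its log2 difference POST-CX minus PRE-CX on the x axis and ENZS minus CRPC on the y axis; the dotted line marks equal steps. Most mitosis genes lie below the line (medians -0.45 and -1.86) and most androgen-induced genes above it (medians -1.32 and -0.03).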

How the data were processed

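The authors extracted total RNA from 54 frozen tumours and sequenced read pairs of stranded libraries made from its polyadenylated part. Reads were checked with FastQC 0.11.9, trimmed with Trim Galore 0.6.5, aligned with STAR 2.7.2b to a combined human (GRCh38) and mouse (GRCm38) reference and quantified with RSEM 1.3.3 (tools and versions from the study's methods and the submitters' processing notes). The deposited values are TPM per human gene symbol, from which the authors had left out the mouse genes. TPM hold no read depth, so no counting interval is given and precision rests on the spread between tumours.

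Each tumour was rescaled to 1000000 and log2(TPM + 1) was taken. Of 60642 genes, 17593 with at least 1 TPM in at least 8 tumours were tested with limma 3.58.1 (R 4.3.3, empirical Bayes with trend) in 1 fit of 5 group means over all 54 tumours, with Benjamini-Hochberg adjustment within each contrast. "Rose", "fell", "higher" and "lower" for single genes and counts mean an adjusted p under 0.05. Group sizes and treatments were read from the labels. Mouse numbers only name tumours. The labels give no batch. The fit was tested on simulated data.

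Genes named are a panel of 18, the 10 largest rises and falls reaching a mean of 5 TPM, and up to 3 per gene list by size of difference; further list members were named after their values were seen. The lists were written by hand. The comparison, its members and the lists were chosen with earlier results of these data known, so they are described by counts and medians with no test of a list. Positions and promoters are from RefSeq (GRCh38.p14), with 127 of 129 named genes matched. The AGAACA search was added after seeing the data. Some single-gene results are not reported here.

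Alternatives were TPM as deposited, centring on the median gene, a pseudocount of 0.1, no filter or a filter of 5 TPM, only both groups in the fit, leaving out totals under 300000 or 700000 TPM, array weights, and leaving out each ENZS and POST-CX tumour. TPM as deposited without totals under 300000 was added after seeing the data.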

Additional observations from a re-analysis of the deposited data

Results flagged for a closer look

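Dixon's test for a single far value was run on 169 groups, the levels of named genes and the list means over the 8 POST-CX tumours. Chance flags about 1 in 20 of such groups. All groups hold the same 8 tumours, and list means contain named genes, so the flags are not independent of each other. The test flagged 43, of which 42 were POST-CX mouse 91, the tumour with the low human total of 27.9%. The ENZS group of 12 was too large for this test. In log2(rescaled TPM + 1), mouse 91 was low for cell division genes, with TOP2A at 3.71, UBE2C at 3.96, BIRC5 at 3.45, NUSAP1 at 3.62, PBK at 3.55, NCAPG at 2.54 and FOXM1 at 3.47. It was low as well for the replication and repair genes RRM2 (4.30), MCM2 (3.82), TYMS (5.26), CDC45 (2.15), BRCA1 (2.27) and RAD54L (1.46), and for UHRF1 (1.86), EZH2 (2.95), E2F1 (2.67) and MYC (5.65). FKBP5 (3.91), the nucleolar genes FBL (6.74) and TCOF1 (2.78), and the proteasome gene PSMD14 (5.72) were low too.

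The same tumour was the highest of POST-CX for several genes that were higher in ENZS, namely AMOTL1 (3.31), SYNE1 (6.20), ZNF735 (3.89), OR51E2 (6.12), GLIPR1 (2.88) and LRRN1 (6.78). It was also highest for ID1 (4.82), IRF1 (3.07), HLA-B (8.90), HLA-E (5.37), HLA-C (8.15), the synaptic vesicle gene SYP (1.86) and the macrophage gene CD68 (2.39). Its list means were low for mitosis (2.89), DNA replication (3.80), DNA repair (3.19), ribosome biogenesis (4.93), mitochondrial ribosomal protein (5.77) and nuclear respiratory chain genes (7.59), and high for interferon-stimulated (3.48) and MHC class I genes (5.74). The remaining flag was AP001160.5 in POST-CX mouse 48, at 3.02. What sets mouse 91 apart, including its low human total, was not tested.

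The step into response on enzalutamide (ENZS minus CRPC) and after castration (POST-CX minus PRE-CX) differed by limma's contrast for 37 of 129 named genes. Among all 17593 tested genes, 3.44% had a higher and 2.05% a lower step on enzalutamide. Most named genes were picked by their ENZS minus POST-CX difference, which is part of this contrast. The count of 37 is therefore raised by that choice and is not separate evidence. The starting levels of the steps differed as given above. Cell division genes had the more negative step on enzalutamide, by -1.48 for MKI67, -2.33 for TOP2A, -2.29 for UBE2C, -2.22 for BIRC5, -2.23 for NUSAP1, -2.42 for PBK, -1.80 for NCAPG and -2.20 for FOXM1. TYMS (-2.15), E2F8 (-1.43), MYC (-1.55), BRCA1 (-1.40), HELLS (-1.0), RPS2 (-0.75) and MRPL12 (-0.54) had differences of the same sign. Genes raised by castration also had negative differences, with DDC at -3.80, OPRK1 at -2.70 and LRRN1 at -1.59. These 3 did not fall on enzalutamide. They rose by 5.56, 3.78 and 2.85 after castration and by 1.76, 1.09 and 1.26 on enzalutamide, so their second rise was the smaller one. 

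Positive differences were found for FKBP5 (1.84), NDRG1 (2.00), NR3C1 (1.48), ELF3 (1.04) and MT1X (1.75), and for the stress genes GDF15 (2.43), GADD45A (1.05), DNAJB9 (1.31), HERPUD1 (0.79), SLC3A2 (1.39) and SAT1 (1.55). The hypoxia-responsive genes ERO1A (2.18) and EGLN1 (1.12), the sterol gene SC5D (0.90) and GABARAPL1 (0.97) were of the same sign. A positive difference need not be a rise on enzalutamide. GDF15 had steps of -2.37 after castration and 0.06 on enzalutamide (limma adjusted p = 0.906), NDRG1 -1.93 and 0.06, and ERO1A -2.03 and 0.14. In contrast, DNAJB9 (1.17), HERPUD1 (0.62), SLC3A2 (1.03), SAT1 (0.80) and GADD45A (0.50) rose in the enzalutamide step. The largest were AP001160.5 (5.4) and ANGPT2 (4.67), a vessel-destabilising factor, which fell by 4.06 after castration and had a step of 0.61 on enzalutamide.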

How the results depend on the processing

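The 20.2% and 7.53% of genes called depend on scale. The number of lower genes was 323 with TPM as deposited, 2156 after centring and 2669 with array weights, against 1325. Genes at least 2-fold higher numbered 637 with TPM as deposited and 856 with a pseudocount of 0.1, against 388. For the difference of response steps, higher genes numbered 217 with TPM as deposited and 1448 with array weights. Lower ones numbered 29 with TPM as deposited, 193 without the filter, 606 without totals under 300000 TPM, 1756 with array weights, and 218 to 499 with single tumours left out. Those at least 2-fold lower numbered 20, 90 and 328 with TPM as deposited, no filter and array weights, and 112 to 224 with single tumours left out. Among androgen-induced genes, the 5 higher became 3 with TPM as deposited (also without totals under 300000 TPM), 2 after centring or without the filter, 9 in the fit of both groups alone or with array weights, 3 without totals under 300000 or 700000 TPM, and 2 to 6 with single tumours left out. The 2 lower became 0 with TPM as deposited, 1 on that scale without totals under 300000 TPM, 4 in the fit of both groups alone, 8 with array weights, and 1 to 3 with single tumours left out. With TPM as deposited, lower DNA replication genes numbered 25 and lower cytosolic ribosomal protein genes 0, and the medians of the ER folding and lysosome lists were 0.66 and 0.63. The mitosis median was -2.55 with a pseudocount of 0.1. The sign turned for 3 panel genes that did not pass: TMPRSS2 (0.18 with TPM as deposited, -0.23 to 0.08 with single tumours left out), CCND1 (0.16 with TPM as deposited) and ANGPT2 (-0.05 with array weights). The cause of these shifts was not tested. Of the named genes that passed, 84 did so under every alternative. No paired analysis was possible because no mouse number is shared between groups. TPM hold no depth, so a gene near 0 in the rescaled values of mouse 91 rests on an unknown number of human reads.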

Other observations

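Clusterin and regulators of complement were higher in ENZS. CLU, a secreted chaperone that rises under treatment stress in prostate cells, had 6.08 to 32.1 TPM with a median of 22.3 in POST-CX and 10.95 to 340 TPM with a median of 83.1 in ENZS (log2 difference 2.04, SE 0.46, limma adjusted p = 0.000725). CD55 (1.58) and CD59 (1.09), which shield cells from complement, rose too, and in all 7 of 16 acute-phase and complement genes were higher and 1 was lower (6 and 1 after centring), with a list median of 0.75 against 0.13 for all genes. Of 33 interferon-stimulated genes 9 rose, among them IFIT2 (0.89) and IRF1 (0.98), and 1 fell. The share of higher genes was 27.3%, against 20.2% of all genes. After centring 4 of the 33 were higher and 1 lower, against 2568 and 2156 of all 17593 genes, so no excess of higher genes was left. Of 8 metallothionein genes 4 rose and 0 fell (4 and 0 after centring), a list whose members are closely alike in sequence.

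Most identity genes of other lineages did not pass the filter. Of 22 neuroendocrine genes 4 passed the filter and 2 rose, SYP from a median of 1.41 to 2.41 TPM (0.43) and ENO2, which is also a glycolysis gene, from 42.3 to 101 TPM (1.29). The one basal gene that passed the filter, KRT14, had medians of 0.597 and 1.33 TPM (0.67, 95% interval 0.00 to 1.35, limma adjusted p = 0.129). Of 19 prostate lineage genes 4 rose and 0 fell (21.1% higher against 20.2% of all genes, and 3 and 0 after centring), the epithelial factors GRHL2 (0.59), ELF3 (0.69) and SPDEF (0.40) and the surface antigen FOLH1, or PSMA, from a median of 1400 to 2090 TPM (0.57, limma adjusted p = 0.0265). Among 24 adhesion and mesenchymal genes 7 rose and 0 fell (7 and 2 after centring), including VIM and FN1, which stroma also makes.

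Of 18 polyamine genes 4 rose and 2 fell (4 and 4 after centring). These shares were 22.2% and 11.1%, against 20.2% and 7.53% of all genes. SAT1, the enzyme that acetylates polyamines for export, went from a median of 367 to 707 TPM (0.92, limma adjusted p = 0.00104). Of 31 proteasome genes 5 rose and 1 fell (16.1% and 3.23%, and 1 and 4 after centring). Of 11 tested insulin and IGF genes 1 fell, IGFBP2 (-0.87), and its call was lost with TPM as deposited. Of 21 fatty acid genes 4 rose, such as ACSL4 (0.97) and SCD5 (1.48), and 1 fell (2 and 2 after centring). Those shares, 19% and 4.76%, were not above those of all genes. Of 75 mitochondrial ribosomal protein genes 14 fell and 4 rose, a split of 25 and 2 after centring and of 0 and 1 with TPM as deposited. The carbonic anhydrase gene CA9, a hypoxia marker, had medians of 0.736 and 2.16 TPM (0.63, 95% interval -0.50 to 1.75, limma adjusted p = 0.429), with 6 of 12 ENZS tumours above every POST-CX tumour.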
